A study of Gallus gallus with 6 samples.

Results

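Expression in chicken leg muscle on day 16 of incubation (E16), set against day 11 (E11), is described gene by gene. Leg muscle of Xinghua chickens, a breed of local origin in China, was taken at E16 and at E11, with 2 libraries per stage, all labelled female, and without any treatment or genetic change. The remaining stage of the series, after hatching, entered an alternative calculation only. RNA was depleted of ribosomal RNA before sequencing, and the deposited table gives for each Ensembl transcript 1 value per stage in FPKM, which sets fragment numbers relative to the length of the transcript and the size of the library. Members were the genes with at least 1 FPKM at the higher of both stages, each gene represented by its most abundant Ensembl transcript, which left 11920 of 16611 genes (71.8%). Of these, 10592 had a gene symbol and 1328 were loci without one. Just inside the limit lay KLHL17, at 1.004 FPKM at E16, against 0.877 FPKM at E11, and just outside it TIFA, at 0.796 FPKM at E16, against 0.996 FPKM at E11.

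Each value pools the 2 libraries of its stage, so the ratios given here carry no error and no replicate check, and no test was run. The authors' own test columns were not used, and the fragment counts behind single values were not analysed here. Changes are given as the log2 ratio of FPKM at E16 over E11 after adding 0.1 to each, and "higher" or "lower" by 2-fold means a log2 ratio of at least 1 or at most -1. In whole tissue, more cells of a type and more RNA per cell cannot be told apart. Over this period the leg muscles of the chick embryo pass from primary fibers with much dividing tissue between them to packed fibers with striation. Myoblasts leave the cell cycle and fuse into multinucleated fibers, which then build sarcomeres, the calcium store that starts contraction and the mitochondria that fuel it.

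On the deposited scale the log2 ratios were centred on 0, a position that depends on how the 2 stages were scaled. Their median was -0.01, with quartiles of -0.50 and 0.50, and the 5th and 95th percentiles were -1.95 and 1.99. By 2-fold or more, 1589 genes (13.3%) stood higher at E16 and 1420 (11.9%) stood lower. By 4-fold or more the numbers were 589 (4.94%) and 572 (4.8%). These shares are the background against which the counts of each gene group below are to be read. The summed FPKM of the members was 1317300 at E16 and 774751 at E11. If both stages are rescaled to the same sum, log2 ratios drop by up to 0.77, less for scarce genes because of the added 0.1, and the split becomes 737 genes higher and 4289 lower. The direction of a group whose median lies above 0 by less than that drop therefore depends on this scaling. A median below 0 moves farther from 0 under the same rescaling, so the size of a fall depends on it too.

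Rises and falls were spread unevenly over the range of levels, as the plot of FPKM at both stages shows. Among the 2210 genes with a mean of under 3 FPKM, 14.4% stood 2-fold higher and 28.8% 2-fold lower. Among the 550 genes between 100 and 1000 FPKM it was 31.6% higher and 3.64% lower. Of the 88 genes at 1000 FPKM or more, 29.5% stood higher and none lower by 2-fold. Without rescaling, the genes that stood lower were thus mostly scarce ones, and the abundant genes that differed by 2-fold mostly stood higher. The median log2 ratio was 0.48 between 100 and 1000 FPKM and 0.69 at 1000 FPKM or more. Both are smaller than the drop of 0.77 under rescaling, so their direction depends on scaling.

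**Figure D1:**
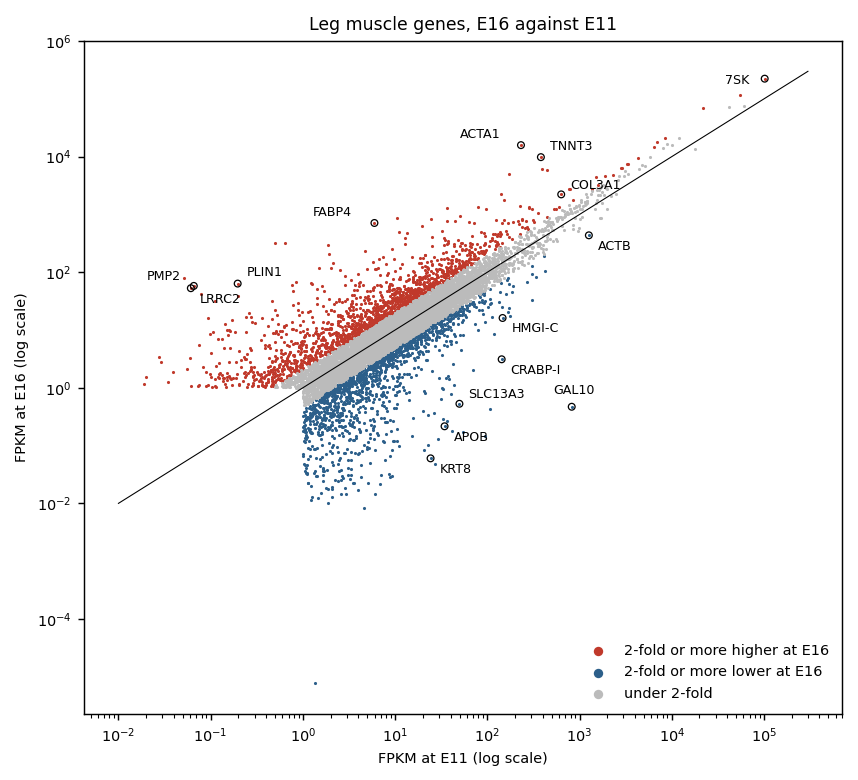
FPKM at E16 (vertical, log scale) against FPKM at E11 (horizontal, log scale) for each member gene with both values above 0, with the line of equal values. Red points stood 2-fold or more higher at E16, blue points 2-fold or more lower and grey points between; ACTA1 lies far above the line at 15838 and 232 FPKM and GAL10 far below it at 0.4697 and 823 FPKM.

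The most abundant entries at both stages were short noncoding RNAs. The regulator of transcription elongation 7SK had 223732 FPKM at E16 and 101909 FPKM at E11, the spliceosomal RNA U1 76831 FPKM at E16 and 61299.5 FPKM at E11 and the small nucleolar RNA SNORA73 70505 FPKM at E16 and 22072 FPKM at E11. Short entries reach high FPKM because the level is set per length, and several of these symbols stand for near-identical copies whose reads can be shared. The 10 most abundant entries held 49.7% of the summed FPKM at E16 and 43.7% at E11.

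Among the 10061 genes whose symbol is protein-coding in RefSeq, expression was drawn together on fewer genes at E16. The 10 most abundant held 17.5% of the summed FPKM of these genes at E16 and 9.34% at E11. It took 161 genes to reach 50% of the sum at E16 and 434 genes at E11. The first ranks at E16 held skeletal actin ACTA1, the fast troponins TNNT3, TNNC2 and TNNI2, the myosin light chain MYL1, the mitochondrially encoded COX3, COX1 and ATP8, and the ribosomal proteins RPL23 and RPS24. At E11 they held the same 3 mitochondrial and 2 ribosomal genes, with elongation factor EF1A, RPS15A, the actin-binding thymosin TMSB4X, RPS17L and the RNA-binding protein YBX1. No sarcomere gene was among the first 10 at E11.

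Groups of genes were followed by 39 lists, and the plot of list members shows their spread and medians. The lists were chosen with earlier results of these data known. Their ranks, medians and shares past 2-fold therefore describe these data and are no independent support. The lists whose medians lay farthest above 0 were those of fast filaments, fat cells and the Z disc, and those farthest below were of kidney and liver, epidermis and limb patterning.

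**Figure D2:**
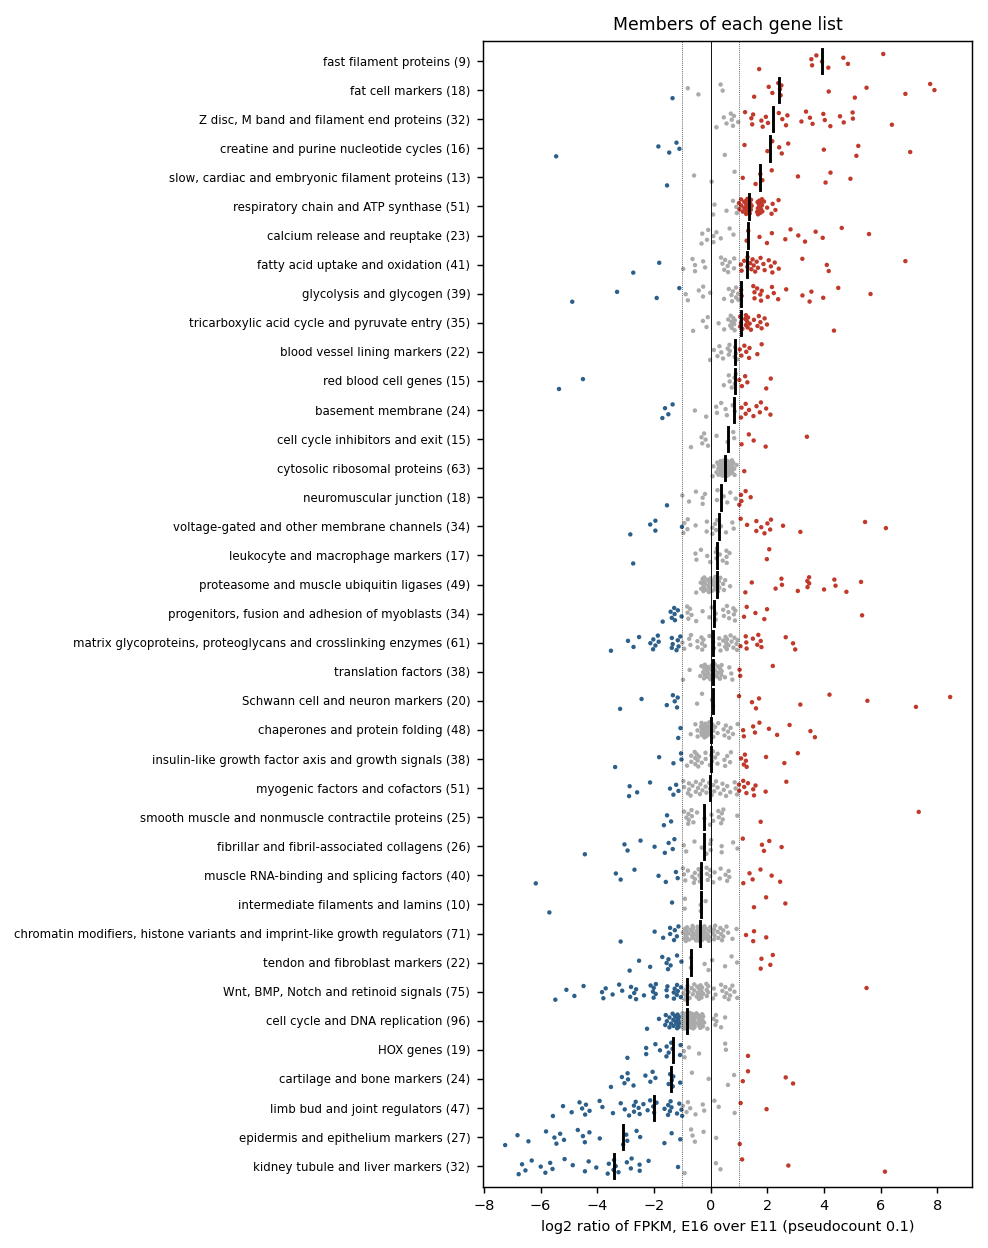
Log2 ratio of FPKM, E16 over E11, of each member gene (points) in 39 gene lists, ordered by list median (black bar), with the number of members in parentheses and dotted lines at 2-fold. Fast filament proteins lead with a median of 3.93 and kidney tubule and liver markers come last at -3.42.

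The filaments of fast fibers stood out in level and in change. Of 17 genes listed, 12 were in the table, 9 were members, and 9 of 9 stood higher by 2-fold (background 13.3%), with a median log2 ratio of 3.93 against -0.01 for all genes. Skeletal actin ACTA1, which forms the thin filament, had 15838 FPKM at E16 and 232 FPKM at E11, a log2 ratio of 6.09. Its locus is chr3:39337939-39339803 on galGal4. The thin filament switch of fast fibers is the troponin complex, and its inhibitory subunit TNNI2 had 5014 FPKM at E16 and 174 FPKM at E11. Its tropomyosin-binding subunit TNNT3 had 9813 FPKM at E16 and 381 FPKM at E11, and its calcium-binding subunit TNNC2 6003 FPKM at E16 and 393 FPKM at E11. Each of the 3 fast troponin genes was thus more than 10 times as abundant at E16. The myosin light chain MYL1 had 5870.2 FPKM at E16 and 442 FPKM at E11, and tropomyosin TPM1 1793 FPKM at E16 and 152 FPKM at E11. The myosin heavy chain MYH1A had 112 FPKM at E16 and 6.21 FPKM at E11, which is uncertain because the adult heavy chains lie side by side and share sequence. Its neighbours MYH1B, MYH1C and MYH1E, and the giant proteins titin and nebulin (NEB), were marked in the table as holding too many fragments and listed at 0 at E16, and they were left out.

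Slow, cardiac and embryonic filament genes stood higher by less, with a median of 1.75, 9 of 13 members 2-fold higher and 1 lower. With both stages set to the same summed FPKM the median was 0.99, just under 2-fold. The calcium-binding troponin TNNC1 of slow fibers had 2759 FPKM at E16 and 778 FPKM at E11, and the slow inhibitory subunit TNNI1 488 FPKM at E16 and 272 FPKM at E11. Troponin TNNT2, the form of heart and embryonic skeletal muscle, ran the other way, with 370.5 FPKM at E16 and 555 FPKM at E11. TNNT3 was thus far above TNNT2 in level at E16 and below it at E11. The ventricular and slow light chain MYL3 had 1334 FPKM at E16 and 80.03 FPKM at E11 and MYL2 (listed as Myl2) 1274 FPKM at E16 and 285 FPKM at E11, while the embryonic light chain MYL4 had 11.98 FPKM at E16 and 34.9 FPKM at E11. The largest log2 ratios of the list were those of CSRP3, a LIM protein of the Z disc, at 4.93 (398 FPKM at E16, 12.9 FPKM at E11), and of the slow myosin-binding protein MYBPC1 at 4.23 (948 FPKM at E16, 50.4 FPKM at E11). Cardiac actin ACTC1, which skeletal muscle uses before birth or hatching, had 1071 FPKM at E16 and 356 FPKM at E11, so that ACTA1 was above ACTC1 at E16 and below it at E11.

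**Figure D3:**
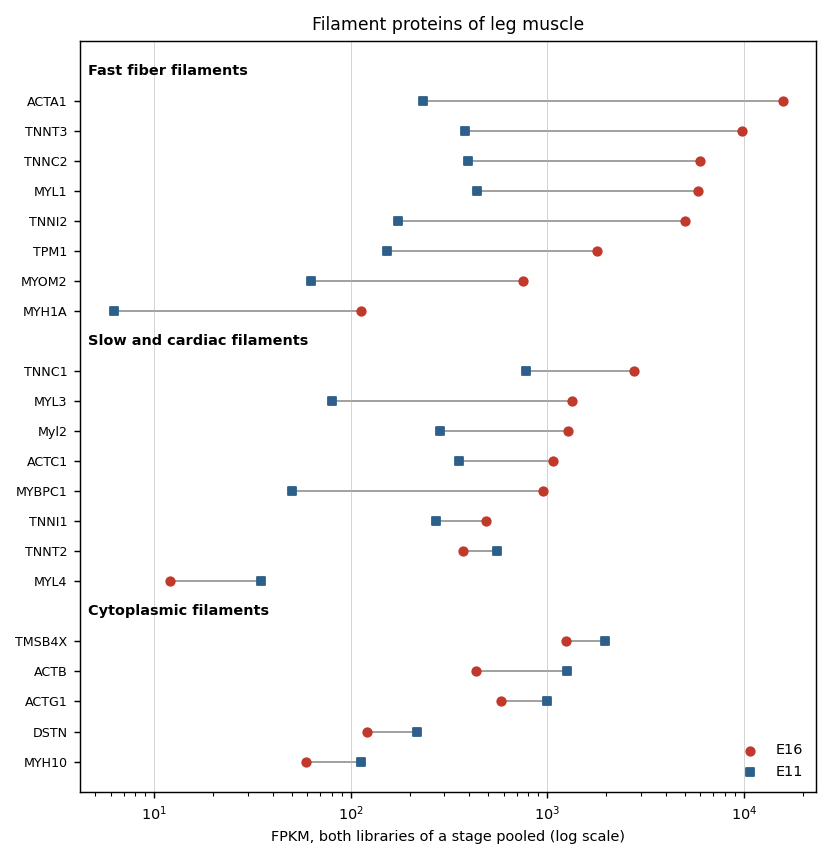
FPKM at E16 (red circles) and E11 (blue squares) of filament genes, on a log scale, both libraries of a stage pooled. Each fast filament gene shown lies higher at E16, while TNNT2, MYL4 and the 5 cytoplasmic genes shown lie higher at E11. These 5 were picked from a list of 25 members, of which 11 had a log2 ratio above 0 and 14 below.

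Proteins that anchor and cap the filaments followed the fast filaments. Of 32 members of the Z disc, M band and filament end list, 24 stood 2-fold higher and none lower, with a median of 2.22. The cross-linker of thin filaments ACTN2 had 2286 FPKM at E16 and 139.8 FPKM at E11, and the Z disc protein MYOZ1, found in fast fibers, had 885 FPKM at E16 and 10.4 FPKM at E11. Its relative MYOZ2, of slow fibers and heart, had 286 FPKM at E16 and 43.6 FPKM at E11. The LIM protein FHL1 had 635 FPKM at E16 and 19.6 FPKM at E11, and ANKRD2, a protein induced by stretch, 5.55 FPKM at E16 and 0.07395 FPKM at E11. Proteins that nucleate and cap thin filament ends were among them, with LMOD2 at 115 FPKM at E16, against 6.06 FPKM at E11, LMOD3 at 187 FPKM at E16, against 15.3 FPKM at E11 and TMOD1 at 385 FPKM at E16, against 33.8 FPKM at E11. SMYD1, a methyltransferase of sarcomere assembly, differed less, with 95.7 FPKM at E16 and 64.8 FPKM at E11.

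The cytoskeleton of nonmuscle and smooth muscle cells did not share this change. Of 25 members 2 stood higher by 2-fold (8%, background 13.3%) and 3 lower (12%, near the background of 11.9%), with a median of -0.22. By sign alone, 11 had a log2 ratio above 0 and 14 below. Cytoplasmic beta-actin ACTB had 435 FPKM at E16 and 1263 FPKM at E11, and gamma-actin ACTG1 582 FPKM at E16 and 994 FPKM at E11. The monomer-binding TMSB4X had 1243 FPKM at E16 and 1964 FPKM at E11, and the nonmuscle myosin MYH10 59.2 FPKM at E16 and 113 FPKM at E11. MYH11, the heavy chain of smooth muscle, was higher with 33.9 FPKM at E16 and 9.89 FPKM at E11, and the thymosin TMSB10 was at 16.2 FPKM at E16 and listed at 0 at E11. The neuronal transgelin TAGLN3 had 1.58 FPKM at E16 and 5.15 FPKM at E11. Among intermediate filaments the muscle forms and the early forms parted: desmin DES had 451 FPKM at E16 and 116 FPKM at E11 and syncoilin SYNC 29.8 FPKM at E16 and 4.71 FPKM at E11, while nestin NES, a filament of progenitors and young fibers, had 147 FPKM at E16 and 277 FPKM at E11. Lamin LMNB2 of the nuclear envelope had 186 FPKM at E16 and 237 FPKM at E11, the neurofilament NEFL 2.44 FPKM at E16 and 6.43 FPKM at E11, and NEFM was listed at 0 at E16 with 5.06 FPKM at E11.

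The calcium store and the membranes that trigger it were higher as a set, with 13 of 23 members 2-fold higher, none lower and a median of 1.33, or 0.57 with both stages set to the same summed FPKM. Triadin TRDN, which ties calsequestrin to the release channel, had 233 FPKM at E16 and 4.74 FPKM at E11. Calsequestrin CASQ2 had 1251 FPKM at E16 and 95.7 FPKM at E11, and the release channel RYR3 64.6 FPKM at E16 and 4.07 FPKM at E11. CACNA1S, the voltage sensor of the transverse tubule, had 35.3 FPKM at E16 and 4.91 FPKM at E11. The tubule-shaping proteins CAV3 and BIN1 had 184 and 7.33 FPKM and 716 and 71.00 FPKM at E16 and E11, and junctophilins JPH1 and JPH2, which hold store and tubule together, had 123 and 19.7 FPKM and 51.1 and 12.8 FPKM. The general calcium sensor calmodulin, listed as CALM, differed little, with 1555 FPKM at E16 and 1211 FPKM at E11, as did the chaperone CALR of the endoplasmic reticulum with 346 FPKM at E16 and 432 FPKM at E11.

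Ion channels of the fiber membrane stood higher more often than all genes, and lower at a share near the background. Of 34 members 13 stood 2-fold higher (38.2%, background 13.3%) and 5 lower (14.7%, background 11.9%), with a median of 0.30. The sodium channel of adult skeletal muscle SCN4A had 8.62 FPKM at E16 and 0.0993 FPKM at E11. Of 39 members with a symbol of the KCN potassium channel family, 11 stood higher and 11 lower, with a median of 0.04. KCNJ11, the pore of the channel gated by ATP, had 31.7 FPKM at E16 and 3.44 FPKM at E11, and the inward rectifier KCNJ2 (listed as IRK1) 51.3 FPKM at E16 and 8.64 FPKM at E11, while the voltage-gated KCNA4 had 0.288 FPKM at E16 and 1.397 FPKM at E11. The chloride channel of muscle CLCN1 was still scarce, with 1.46 FPKM at E16 and 0.351 FPKM at E11. The calcium channel CACNA1G, of the T type, had 0.739 FPKM at E16 and 3.14 FPKM at E11. Of 3 gap junction proteins listed, which couple cells, GJA1 was lower, at 24.3 FPKM at E16, against 174 FPKM at E11, as was GJD2, at 1.31 FPKM at E16, against 6.06 FPKM at E11, and GJC1 was at 15.01 FPKM at E16, against 11.6 FPKM at E11. ATP1B4, a relative of the sodium pump's beta subunit that in birds is a pump subunit, had 117 FPKM at E16 and 1.51 FPKM at E11, while the pump's ATP1B1 had 122 FPKM at E16 and 83.6 FPKM at E11.

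At the neuromuscular junction the acetylcholine receptor subunits did not move together. CHRND had 31.4 FPKM at E16 and 14.7 FPKM at E11 and CHRNG, the subunit that embryonic receptors hold in place of the adult one, 23.9 FPKM at E16 and 11.8 FPKM at E11. CHRNA1, which binds acetylcholine, had 23.3 FPKM at E16 and 46.5 FPKM at E11, close to 2-fold lower. The clustering protein RAPSN had 47.01 FPKM at E16 and 22.3 FPKM at E11, and COLQ, the tail that anchors acetylcholinesterase, 8.65 FPKM at E16 and 3.18 FPKM at E11. Utrophin UTRN and the adhesion molecule NCAM1, both spread over young fibers, had 57.3 and 48.4 FPKM and 36.3 and 61.5 FPKM at E16 and E11. The transcription factor ETV5 was the only member 2-fold lower, with 2.62 FPKM at E16 and 7.79 FPKM at E11. In all 5 of 18 members stood higher by 2-fold.

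Regulators of muscle identity had a list median of -0.02, or -0.76 with both stages set to the same summed FPKM. Of 51 members 11 stood 2-fold higher (21.6%, background 13.3%) and 8 lower (15.7%, background 11.9%). Of the 4 myogenic bHLH factors, MYF6, which acts late in differentiation, had 18.4 FPKM at E16 and 4.71 FPKM at E11 and MYF5, which acts early, 3.27 FPKM at E16 and 1.02 FPKM at E11. MYOD1 had 81.5 FPKM at E16 and 54.2 FPKM at E11 and MYOG 15.1 FPKM at E16 and 17.1 FPKM at E11. PAX7 (listed as Pax-7), the mark of satellite cells, had 9.97 FPKM at E16 and 12.04 FPKM at E11. The E protein TCF12, a partner of these factors, was the most abundant of the list, at 196 FPKM at E16, against 332 FPKM at E11. Of its relatives, TCF3 was 2-fold lower, at 27.01 FPKM at E16, against 59.4 FPKM at E11, and TCF4 was at 3.12 FPKM at E16, against 6.16 FPKM at E11. Of the inhibitors of bHLH factors, ID2 had 32.6 FPKM at E16 and 88.1 FPKM at E11 and ID3 (listed as Id3) 24.2 FPKM at E16 and 60.2 FPKM at E11, both 2-fold lower, while ID1 (listed as Id1) had 25.3 FPKM at E16 and 22.1 FPKM at E11. TWIST2 (listed as cdermo-1) had 6.28 FPKM at E16 and 46.1 FPKM at E11, TWIST1 0.472 FPKM at E16 and 2.42 FPKM at E11, and PITX1, which marks the hind limb, 1.74 FPKM at E16 and 13.4 FPKM at E11. MEF2A and MEF2C, which drive genes of differentiated fibers, had 133 and 55.5 FPKM and 115 and 57.3 FPKM at E16 and E11. TEAD1, abundant at both stages, had 154 FPKM at E16 and 111 FPKM at E11, and MYOCD, a partner of serum response factor known from heart and smooth muscle, had the list's highest log2 ratio, 2.67 (9.49 FPKM at E16, 1.404 FPKM at E11). SOX6, which represses slow fiber genes, had 87.4 FPKM at E16 and 34.95 FPKM at E11.

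TEAD4, DMD, FGF13 and DLK1, which the study chose for PCR, each stood 2-fold or more higher at E16. For TEAD4, DMD and DLK1 a difference of 2-fold or more between these stages, in the same libraries, was part of that choice. FGF13 was compared by PCR between E11 and the stage after hatching. TEAD4, a transcription factor of myogenic cells at chr1:74983936-75071914, had 56.9 FPKM at E16 and 25.5 FPKM at E11. DMD, the gene of dystrophin at chr1:114233667-114932830, had 183 FPKM at E16 and 26.5 FPKM at E11. FGF13, an intracellular member of the fibroblast growth factor family at chr4:4730771-4781663, had 59.2 FPKM at E16 and 6.31 FPKM at E11. DLK1, a membrane protein of the Notch ligand family at chr5:48844046-48853652, had 12.6 FPKM at E16 and 5.25 FPKM at E11. The log2 ratios were 1.15, 2.78, 3.21 and 1.25 in this order.

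Genes of myoblast adhesion and fusion had a median of 0.11. Of 34 members 6 stood 2-fold higher (17.6%, background 13.3%) and 8 lower (23.5%, background 11.9%). The calpain CAPN3, a protease bound to titin in muscle, led with 108 FPKM at E16 and 2.54 FPKM at E11. The chemokine CXCL12 had 44.7 FPKM at E16 and 11.2 FPKM at E11 and its scavenging receptor CXCR7 68.6 FPKM at E16 and 30.2 FPKM at E11. Cadherins of early mesenchyme and myoblasts were lower: CDH11 had 58.9 FPKM at E16 and 190.3 FPKM at E11 and N-cadherin CDH2 24.6 FPKM at E16 and 60.2 FPKM at E11. The paired cell surface proteins CDON and BOC, which promote differentiation at cell contacts, had 6.18 and 16.1 FPKM and 15.4 and 31.4 FPKM at E16 and E11. Myomaker, the fusion protein, listed under the older symbol TMEM8C, had 6.498 FPKM at E16 and 11.5 FPKM at E11. Annexin ANXA5 was the most abundant of the list with 203 FPKM at E16 and 149 FPKM at E11.

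RNA-binding and splicing factors moved both ways. Of 40 members 6 stood 2-fold higher, a share near the background, and 8 lower, with a median of -0.34. The 6 were RBM20, RBM38, FXR1, RBM24, MBNL1 and MBNL2. RBM24, which sets splicing in heart and skeletal muscle, had 456 FPKM at E16 and 163 FPKM at E11, and RBM20, a regulator of titin splicing, 14.2 FPKM at E16 and 2.51 FPKM at E11. MBNL1, which sets adult splice forms, had 72.01 FPKM at E16 and 27.7 FPKM at E11. The list also holds HMGA2 (listed as HMGI-C) and HMGA1, which are DNA-binding proteins of chromatin. The 8 lower were HMGA2, IGF2BP1 and LIN28B, known from embryonic growth, the neuronal Rbfox3, ELAVL2 and ELAVL4, and PTBP3 and ESRP2. HMGI-C had 16.2 FPKM at E16 and 147 FPKM at E11, IGF2BP1 11.6 FPKM at E16 and 27.2 FPKM at E11 and LIN28B 0.226 FPKM at E16 and 1.99 FPKM at E11. The repressor of exons PTBP1 had 45.00 FPKM at E16 and 83.6 FPKM at E11 and its relative PTBP3 0.701 FPKM at E16 and 8.04 FPKM at E11. HMGA1, one of the most abundant here by its mean, had 211 FPKM at E16 and 414 FPKM at E11, the cytoplasmic poly(A)-binding protein PABPC1 353 FPKM at E16 and 518 FPKM at E11, and the splicing factor of epithelia ESRP2 0.0298 FPKM at E16 and 9.24 FPKM at E11.

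Transcripts of the same gene could be compared for 229 genes with at least 2 Ensembl transcripts of 5 FPKM or more at a stage, and in 64 of them 1 transcript was higher and another lower at E16. In 3 genes, PKM, XIRP1 and the small nucleolar RNA SNORA5, both moved by 2-fold. For pyruvate kinase PKM, transcript ENSGALT00000003100 had 199.7 FPKM at E16 and 21.02 at E11, while transcript ENSGALT00000034751 had 26.3 and 66.7. The leading transcript of PKM thus differed between the stages, and the table does not say which of them holds the exon of the M1 or the M2 enzyme. For CAPZB, the beta subunit of the protein that caps thin filaments at the Z disc, transcript ENSGALT00000006425 had 165 FPKM at E16 and 40.6 at E11, and transcript ENSGALT00000006424 had 33.6 and 63.6. The leading transcript differed here too, though the second transcript was lower by less than 2-fold. XIRP1, an actin-binding protein of muscle attachment sites, had 147 FPKM at E16 and 54.3 at E11 in its main transcript, and 0.157 and 7.603 in a minor one. Smaller opposite changes were found for SPTLC2, PACSIN2, ACTN1, fibronectin (listed as fn1), EXOC7 and avenaII. FPKM of overlapping transcripts are estimates that share reads, so such splits are less certain than the gene's sum.

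The medians of all 5 lists of energy metabolism lay above 2-fold, the highest being that of the genes that buffer ATP. With both stages set to the same summed FPKM only that list stayed past 2-fold, at 1.33, and the others were at 0.60 (respiratory chain), 0.54 (fatty acids), 0.31 (glycolysis) and 0.31 (tricarboxylic acid cycle). Of 16 members of the creatine and purine nucleotide cycles 10 stood 2-fold higher and 5 lower, with a median of 2.09. GATM, which makes the precursor of creatine, had 1313 FPKM at E16 and 36.99 FPKM at E11, and GAMT, which completes it, 40.8 FPKM at E16 and 7.07 FPKM at E11. The mitochondrial creatine kinase of muscle CKMT2 had 39.2 FPKM at E16 and 0.198 FPKM at E11, whereas the brain form CKB had 18.2 FPKM at E16 and 50.3 FPKM at E11. The adenylate kinase AK1 had 401 FPKM at E16 and 25.01 FPKM at E11 and the AMP deaminase of muscle AMPD1 106 FPKM at E16 and 15.8 FPKM at E11. Its ubiquitous relative AMPD2 had 2.03 FPKM at E16 and 4.47 FPKM at E11. The muscle adenylosuccinate synthase ADSSL1 and the general form ADSS were at 135 and 25.2 FPKM and 30.1 and 69.4 FPKM at E16 and E11. The purine-degrading XDH had 0.1199 FPKM at E16 and 9.51 FPKM at E11.

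Of 39 members of glycolysis and glycogen use 20 stood 2-fold higher (51.3%, background 13.3%), with a median of 1.08. A further 4 stood lower, a share of 10.3% that is near the background of 11.9%. GAPDH was the most abundant, with 2739 FPKM at E16 and 797 FPKM at E11, and TPI1 had 826 FPKM at E16 and 236 FPKM at E11. PFKFB1, which sets the activator of phosphofructokinase, had 16.9 FPKM at E16 and 0.2400 FPKM at E11, and PPP1R3A, which ties phosphatase 1 to glycogen in muscle, 115 FPKM at E16 and 4.98 FPKM at E11. Among the 4 that were lower were PYGB, PFKL and FBP1, forms of brain or of liver and kidney. FBP1 had 1.01 FPKM at E16 and 32.5 FPKM at E11, while the muscle form FBP2 had 10.4 FPKM at E16 and 0.791 FPKM at E11. Forms not particular to muscle were also among the 20 higher members, with the brain aldolase ALDOC at 430.1 FPKM at E16, against 138 FPKM at E11 and PGAM1 at 352 FPKM at E16, against 120.3 FPKM at E11. Of the lactate dehydrogenase subunits, LDHA, which prevails in fast muscle, had 204 FPKM at E16 and 71.6 FPKM at E11 and LDHB 260.1 FPKM at E16 and 167 FPKM at E11. LDHB thus differed by less than 2-fold, and its direction depends on scaling.

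Genes of mitochondrial fuel use stood higher too. In the respiratory chain and ATP synthase 45 of 51 nuclear members stood 2-fold higher and none lower, with a median of 1.36. Of complex I, 28 of 29 NDUF subunits passed 2-fold, between 0.92 and 2.40. The 5 UQCR subunits of complex III lay between 1.31 and 2.29. NDUFA5 had 82.02 FPKM at E16 and 15.5 FPKM at E11 and UQCR11 178 FPKM at E16 and 36.4 FPKM at E11, the largest log2 ratios of the list, and COX4I1 and COX6C were its most abundant members, with 757 and 213 FPKM and 556 and 275 FPKM at E16 and E11. The smallest log2 ratios were those of COX7A2, at 34.4 FPKM at E16, against 32.4 FPKM at E11, and ATP5J2, at 5.14 FPKM at E16, against 4.66 FPKM at E11. Of the protein genes on the mitochondrial genome itself, 12 were listed under an ATP, COX, CYTB or ND symbol, and 10 of them stood 2-fold higher, between 0.49 (ND3) and 1.36 (ND2). Their median was 1.15, close to that of the nuclear subunits. A further mitochondrial entry, listed as Cu, had 4854 FPKM at E16 and 2282 FPKM at E11 and is not in this count.

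In the tricarboxylic acid cycle and pyruvate entry 20 of 35 members stood 2-fold higher and none lower, with a median of 1.07. Malate dehydrogenase MDH1 had 251 FPKM at E16 and 74.2 FPKM at E11. The largest log2 ratio was that of PDK4, the kinase that closes the pyruvate dehydrogenase gate when fat is burned, with 60.2 FPKM at E16 and 2.85 FPKM at E11. Citrate synthase CS differed little, with 45.8 FPKM at E16 and 37.6 FPKM at E11. Of 41 members of fatty acid uptake and oxidation 24 stood higher and 2 lower, with a median of 1.30. The heart and muscle carrier FABP3 had 773 FPKM at E16 and 44.9 FPKM at E11, and FABP7, the form of the embryonic brain and of early cells, 16.8 FPKM at E16 and 112 FPKM at E11. The thiolase ACAT2 of the cytosol had 8.77 FPKM at E16 and 31.1 FPKM at E11. The coactivator PPARGC1A, which drives mitochondrial genes, had 21.99 FPKM at E16 and 4.503 FPKM at E11. Fat cell genes, which are also part of this list, moved in the same direction and are given below. Their part in the list's median was not tested.

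Cytosolic ribosomal proteins lay close together. Of 63 in the list 1 stood 2-fold higher (RPS28) and none lower, and all lay between 0.07 and 1.19. Their median of 0.52 becomes -0.24 when both stages are set to the same summed FPKM, so its direction depends on scaling. RPL23 had 4568 FPKM at E16 and 3037 FPKM at E11 and RPS24 3962 FPKM at E16 and 2644 FPKM at E11. Paralogs outside the list spread more widely. RPL3L, known from striated muscle of mammals, had 3.86 FPKM at E16 and 0.247 FPKM at E11, RPL7L1 56.6 FPKM at E16 and 75.4 FPKM at E11 and RPL10L 1069 FPKM at E16 and 824 FPKM at E11. Of 38 translation factors 3 stood higher (7.89%, below the background of 13.3%) and none lower. EEF2K, the kinase that slows elongation, had 83.4 FPKM at E16 and 18.1 FPKM at E11. EIF4EBP1, a brake on cap binding, had 463 FPKM at E16 and 224 FPKM at E11, and EEF1D had 381 FPKM at E16 and 188 FPKM at E11. With log2 ratios of 1.05 and 1.02, EIF4EBP1 and EEF1D were just past 2-fold. EEF1A1 (listed as EF1A) had 2267 FPKM at E16 and 2479 FPKM at E11 and EEF1B2 816 FPKM at E16 and 575 FPKM at E11.

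Cell division genes were lower as a group, most of them by less than 2-fold without rescaling. Of 96 members of cell cycle and DNA replication, none stood 2-fold higher and 21 (background 11.9%) stood lower. Their median was -0.82, or -1.57 with both stages set to the same summed FPKM. Topoisomerase TOP2A had 45.2 FPKM at E16 and 137 FPKM at E11 and the mitotic kinase CDK1 74.8 FPKM at E16 and 137 FPKM at E11. Ribonucleotide reductase RRM2 had 25.3 FPKM at E16 and 75.96 FPKM at E11. The 5 measured subunits of the MCM helicase lay between -1.54 and -0.79, 3 of them 2-fold lower. The centromere histone CENPA (listed as CenpA) had 1.01 FPKM at E16 and 5.15 FPKM at E11 and GINS2 of the replication fork 2.55 FPKM at E16 and 9.25 FPKM at E11. The D cyclins, which answer to growth signals, stayed near their E11 level, with CCND1 at 86.9 FPKM at E16, against 76.2 FPKM at E11 and CCND2 at 53.4 FPKM at E16, against 37.4 FPKM at E11. Genes that hold cells out of the cycle were higher in 5 of 15 members and lower in none. TOB (listed so for TOB1) had 85.5 FPKM at E16 and 22.1 FPKM at E11, KLF9 5.34 FPKM at E16 and 0.416 FPKM at E11 and BTG1, the most abundant, 133 FPKM at E16 and 149.9 FPKM at E11.

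Growth signals were balanced around 0, with a median of 0.00. Of 38 members 8 stood higher (21.1%, background 13.3%) and 5 lower (13.2%, near the background of 11.9%). Myostatin (listed as GDF8), which restrains muscle growth, had 129 FPKM at E16 and 21.2 FPKM at E11, and TRIM63, a ubiquitin ligase of muscle wasting, 59.3 FPKM at E16 and 6.94 FPKM at E11. The growth factors themselves were slightly lower, IGF1 (listed as IGF-I) with 23.5 FPKM at E16 and 34.7 FPKM at E11 and IGF2 with 12.1 FPKM at E16 and 16.7 FPKM at E11. The protease PAPPA2, which frees them from binding proteins, had 0.05896 FPKM at E16 and 1.54 FPKM at E11. The hormone receptors GHR and THRA were higher, with 68.2 and 29.4 FPKM and 26.7 and 10.97 FPKM at E16 and E11. The follistatin-like FSTL1 was the most abundant member, with 324 FPKM at E16 and 367 FPKM at E11. STC2, an inhibitor of that protease family, had 1.59 FPKM at E16 and 5.85 FPKM at E11.

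Protein turnover separated by component. The 29 measured proteasome subunits (PSMA, PSMB, PSMC and PSMD) had a median of 0.07, and 1 of them, PSMA5, passed 2-fold. By contrast, 8 of 14 ASB genes, adaptors that bring substrates to a ubiquitin ligase, stood higher and 1 lower, with a median of 2.40. ASB18 had 10.1 FPKM at E16 and 0.158 FPKM at E11, ASB14 9.36 FPKM at E16 and 0.241 FPKM at E11 and ASB5 77.7 FPKM at E16 and 15.8 FPKM at E11. KLHL31, a muscle adaptor of the same kind of ligase, had 285 FPKM at E16 and 25.4 FPKM at E11, and TRIM55, which binds titin, 232 FPKM at E16 and 84.8 FPKM at E11. Chaperones divided likewise. The 5 small heat shock proteins measured under HSPB symbols were 2-fold higher, between 1.17 and 3.68, and CRYAB, of the same family, was at 0.79. HSPB1 had 304 FPKM at E16 and 44.02 FPKM at E11 and HSPB3 88.3 FPKM at E16 and 6.795 FPKM at E11. The 8 HSPA chaperones lay between -0.34 and 0.30 and the 6 CCT subunits between -0.22 and 0.49, none of them past 2-fold. The myosin chaperone UNC45B of striated muscle had 74.95 FPKM at E16 and 26.4 FPKM at E11 and the general form UNC45A 4.93 FPKM at E16 and 6.82 FPKM at E11. HSP90B1 and HSP90AA1 had 291 and 400.2 FPKM and 394 and 271 FPKM at E16 and E11. HSPH1 and DNAJB11 were the 2 members lower by 2-fold, with 7.03 and 15.6 FPKM and 12.2 and 25.6 FPKM.

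Chromatin genes had a median of -0.37, with 4 of 71 higher (5.63%, background 13.3%). A further 9 stood lower, a share of 12.7% that is near the background of 11.9%. SMARCD3, the remodeler subunit of heart and muscle, had 83.1 FPKM at E16 and 29.2 FPKM at E11, and SMARCC1, a core subunit, 30.9 FPKM at E16 and 70.5 FPKM at E11. The linker histone of resting cells H1F0 had 6.94 FPKM at E16 and 1.71 FPKM at E11. HMGB1, a DNA-bending protein abundant at both stages, had 253 FPKM at E16 and 433 FPKM at E11, and the histone variant H3F3B 362 FPKM at E16 and 444 FPKM at E11.

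Genes of the matrix around the fibers moved both ways. The list plotted as fibrillar and fibril-associated collagens also held other types, among them collagens VI, VIII, X and XVII. Of its 26 members 5 stood 2-fold higher and 9 lower, with a median of -0.23. All 3 chains of collagen VI, the microfibril that links the fiber's basement membrane to the interstitium, were higher, COL6A3 most, with 285 FPKM at E16 and 50.1 FPKM at E11. COL3A1 had 2225 FPKM at E16 and 633 FPKM at E11 and COL1A2 1808 FPKM at E16 and 1042 FPKM at E11, and these were the most abundant. Lower were COL12A1, of dense connective tissue, with 68.1 FPKM at E16 and 268 FPKM at E11, and COL24A1, of developing bone and cornea in the mouse, with 7.92 FPKM at E16 and 44.4 FPKM at E11. The cartilage collagens COL9A1 and COL9A2 had 1.76 and 14.1 FPKM and 0.7603 and 6.97 FPKM at E16 and E11, and COL17A1, of the epidermal attachment, 0.2601 FPKM at E16 and 7.701 FPKM at E11.

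In the basement membrane 11 of 24 members stood higher and 4 lower, with a median of 0.82, or 0.09 with both stages set to the same summed FPKM. All 5 collagen IV chains measured passed 2-fold, between 1.09 and 1.74. COL4A1 had 425 FPKM at E16 and 128 FPKM at E11. LAMA2, the laminin of the muscle fiber's sheath, had 111 FPKM at E16 and 32.4 FPKM at E11 and LAMA4, of vessels and fibers, 163 FPKM at E16 and 41.7 FPKM at E11. COL15A1, at the outer face of that sheath, had 135 FPKM at E16 and 31.1 FPKM at E11. The 4 that were lower were EGFL6, FREM2, FBLN1 and NPNT. FREM2, of the embryonic epidermal basement membrane, had 34.7 FPKM at E16 and 106 FPKM at E11 and EGFL6 94.2 FPKM at E16 and 307 FPKM at E11.

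**Figure D4:**
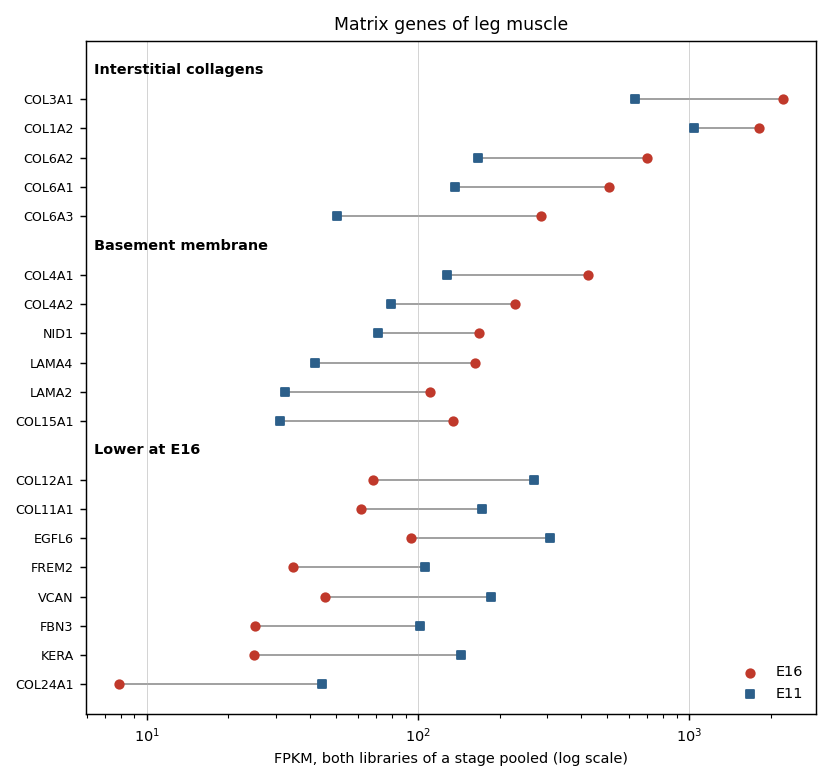
FPKM at E16 (red circles) and E11 (blue squares) of matrix genes, on a log scale, both libraries of a stage pooled. The interstitial collagens and basement membrane genes shown lie higher at E16, and the last block holds genes chosen because they lie lower at E16. Genes of the upper blocks were picked from longer lists too. Abundant members near their E11 level, such as COL5A1 with 280 FPKM at E16 and 282 FPKM at E11, are not shown.

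Among 61 glycoproteins, proteoglycans and crosslinking enzymes, 12 stood higher and 17 lower, with a median of 0.09. SPARC, which binds collagen, had 1246 FPKM at E16 and 527 FPKM at E11 and the small proteoglycan decorin (DCN) 757 FPKM at E16 and 453 FPKM at E11. MATN2 and COMP had 75.2 and 9.41 FPKM and 24.5 and 3.17 FPKM at E16 and E11. The fibrillins parted: FBN1 had 205 FPKM at E16 and 114 FPKM at E11, while FBN2 (listed as fbn2) and FBN3, of embryonic microfibrils, had 17.9 and 41.2 FPKM and 24.96 and 102 FPKM. Elastin ELN had 32.03 FPKM at E16 and 9.904 FPKM at E11. Lower were versican VCAN, of provisional matrix, with 45.4 FPKM at E16 and 186 FPKM at E11, keratocan KERA with 24.9 FPKM at E16 and 144 FPKM at E11, and the cartilage proteins HAPLN1 and ACAN with 0.865 and 10.9 FPKM and 1.05 and 8.59 FPKM.

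Patterning genes of the limb were lower over almost the whole list. Of 47 members 35 stood 2-fold lower (74.5%, background 11.9%) and 2 higher, with a median of -1.99. Several were scarce and passed the limit only through E11, such as SHOX2 with 0.0710 FPKM at E16 and 1.01 FPKM at E11. Among all genes with a mean of under 3 FPKM the share lower was 28.8%. Sonic hedgehog SHH, the signal of the limb's posterior margin, was listed at 0 at E16 and had 4.63 FPKM at E11. The hind limb factor TBX4 had 0.696 FPKM at E16 and 5.09 FPKM at E11, the dorsal factor LMX1B 0.829 FPKM at E16 and 13.00 FPKM at E11 and the mesenchymal PRRX1 21.4 FPKM at E16 and 48.8 FPKM at E11. TFAP2B was listed at 0 at E16 with 3.596 FPKM at E11. OSR1, of connective tissue cells, had 19.4 FPKM at E16 and 55.1 FPKM at E11 and TBX15, of limb muscle and its connective tissue, 60.9 FPKM at E16 and 33.7 FPKM at E11. The 2 higher members were EGR1, an early response factor, with 43.4 FPKM at E16 and 10.96 FPKM at E11, and TCF15, with 8.598 FPKM at E16 and 4.07 FPKM at E11. Of 19 HOX genes 12 stood lower (63.2%, background 11.9%), scarce genes among them, and 1 higher. The higher one was HOXC10, with 64.3 FPKM at E16 and 25.7 FPKM at E11. HOXD10, its paralog on another cluster, had 0.203 FPKM at E16 and 2.22 FPKM at E11, HOXA2 0.617 FPKM at E16 and 3.37 FPKM at E11 and HOXD8 10.8 FPKM at E16 and 18.4 FPKM at E11. HOXA7 and HOXB4 were above their E11 level by less than 2-fold, with 13.2 and 9.199 FPKM and 9.66 and 6.602 FPKM at E16 and E11. By cluster, 4 of 5 HOXA, 2 of 5 HOXB, 2 of 4 HOXC and 4 of 5 HOXD genes stood 2-fold lower.

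Of 75 genes of Wnt, BMP, Notch and retinoid signaling 33 stood lower (44%, background 11.9%) and 1 higher, with a median of -0.81. Genes of retinoic acid handling moved unequally. The cytosolic binding proteins CRABP1 (listed as CRABP-I) and CRABP2 had 3.11 and 143 FPKM and 8.53 and 119 FPKM at E16 and E11. The synthesizing enzymes ALDH1A1 and ALDH1A2 had 0.121 and 7.42 FPKM and 21.4 and 49.1 FPKM, and the degrading enzyme CYP26B1 1.45 and 10.7 FPKM. The receptor RARA and the binding protein RBP5 had 7.85 and 8.62 FPKM and 24.1 and 30.1 FPKM, both under 2-fold. The only member 2-fold higher was RBP7, a retinol-binding protein of fat and vessel cells, with 502 FPKM at E16 and 10.97 FPKM at E11. In the Wnt branch, 6 of 10 ligands were 2-fold lower, with WNT11 at 4.54 FPKM at E16, against 29.9 FPKM at E11 and WNT5A at 6.84 FPKM at E16, against 27.9 FPKM at E11. The nuclear effector LEF1 (listed as Lef-1) had 4.58 FPKM at E16 and 51.3 FPKM at E11, the feedback target AXIN2 4.48 FPKM at E16 and 11.2 FPKM at E11, and beta-catenin CTNNB1 134 FPKM at E16 and 249 FPKM at E11. The Wnt antagonists SFRP1 and SFRP2 were lower too, with 9.86 and 39.9 FPKM and 28.2 and 108 FPKM at E16 and E11. FZD10 had 0.0891 FPKM at E16 and 5.19 FPKM at E11. TGFB3 was among the most abundant of the list and had 136 FPKM at E16 and 94.6 FPKM at E11.

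Markers of other cells in the tissue moved with these groups, and their part in the results above was not tested. Muscle markers were measured at both stages. The 5 fiber markers found of 8 listed summed to 37119.9 FPKM at E16 and 1296 FPKM at E11, and the 5 myoblast markers to 110.1 and 85.3. At E11 the myoblast sum was below those of the kidney tubule and epidermal markers. Kidney tubule markers were lower in 5 of 5, with a sum of 3.97 FPKM at E16 and 117 at E11, and SLC34A1 was listed at 0 at E16. Epidermal markers were lower in 5 of 6, with a sum of 5.78 FPKM at E16 and 109 at E11. Cartilage markers were lower in 6 of 6, summing to 22.3 FPKM at E16 and 83.3 at E11. The longer list of cartilage and bone was less uniform, with 16 of 24 members 2-fold lower and 4 higher. Among the 4 higher were COMP, CHAD and SOX6, with log2 ratios of 2.91, 2.65 and 1.32. None of these kidney tubule and epidermal markers was above 1.99 FPKM (CUBN) at E16.

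Fat cell markers went the other way, 5 of 5 higher, with a sum of 884 FPKM at E16 and 19.7 at E11. The longer list of fat cell genes was less uniform, with 13 of 18 members 2-fold higher and 1 lower. The lower one was SCD, with 1.26 FPKM at E16 and 3.35 FPKM at E11. Schwann cell markers were higher in 5 of 5, with 565 and 27.4 FPKM. The neuron markers summed to 4.87 and 12.2 FPKM, low at both stages. Vessel markers were higher in 2 of 6 by 2-fold, with 329 FPKM at E16 and 131 at E11. Liver markers summed to 117 and 106 FPKM, but the genes behind the sum differed: the secreted glycoprotein AHSG had 60.97 FPKM at E16 and 0.758 FPKM at E11 and apolipoprotein APOA1 46.7 FPKM at E16 and 88.3 FPKM at E11. Bone, tendon and leukocyte markers summed to 12.5, 68.6 and 88.3 FPKM at E16, against 29.5, 73.8 and 42.95 FPKM at E11. Of 5 leukocyte markers only CD74 (listed as Ii) passed 2-fold, with a log2 ratio of 1.99. Of 3 tendon markers FMOD stood higher, at 1.77, and MKX lower, at -2.13. Of 3 bone markers 2 stood lower by 2-fold.

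**Figure D5:**
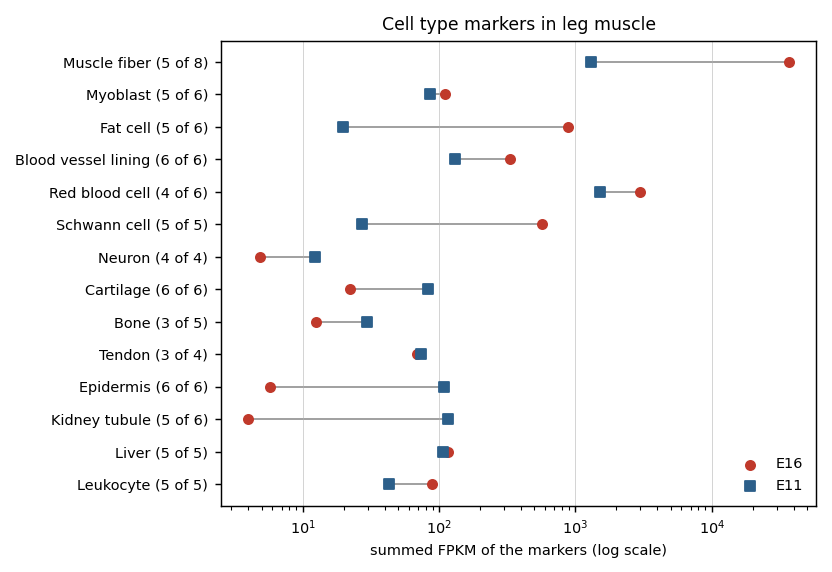
Summed FPKM (log scale) of the markers of 14 cell types at E16 (red circles) and E11 (blue squares), with the number of markers found in the table of those listed. Muscle fiber, fat cell and Schwann cell sums lie more than 10 times higher at E16, and kidney tubule and epidermis sums more than 10 times higher at E11.

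In the longer lists the same cells showed more of their genes. Myelin proteins of the Schwann cell were among the largest differences of all, with PMP2 at 57.98 FPKM at E16, against 0.0657 FPKM at E11 and MBP at 297 FPKM at E16, against 1.86 FPKM at E11. Axonal genes such as the growth cone protein GAP43 (1.76 and 5.33 FPKM at E16 and E11) and the ubiquitin hydrolase UCHL1 (listed as UCH-L1, 6.54 and 35.8 FPKM) were lower. Of 15 red cell genes, 6 stood higher and 2 lower. The globin entries HBAA, HBG2, HBAD and HBE1 had 1811 and 842 FPKM, 773 and 417 FPKM, 414 and 231 FPKM and 83.1 and 52.1 FPKM at E16 and E11. The globin entries HBG1 and HBE, with 0.394 and 20.04 FPKM and 0.259 and 8.05 FPKM, were the 2 lower ones, and reads of globin copies can be shared. Carbonic anhydrase CA2 had 69.2 FPKM at E16 and 15.8 FPKM at E11. Of 17 leukocyte genes 2 stood higher, a share of 11.8% that is near the background of 13.3%. These were LY86 and the invariant chain CD74 (listed as Ii), with 20.2 and 4.73 FPKM and 51.7 and 12.98 FPKM. CD4 had 0.672 FPKM at E16 and 5.03 FPKM at E11.

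The 15 largest rises by log2 ratio were taken among genes with a symbol, both values above 0 and at least 10 FPKM at the higher stage. Most are genes known from a few of these tissues, and which cells they came from was not tested. Muscle fiber genes were LRRC2, a leucine-rich repeat protein of striated muscle, with 52.9 FPKM at E16 and 0.06098 FPKM at E11, SYPL2 (mitsugumin 29), of the triad, with 205 FPKM at E16 and 1.94 FPKM at E11, and carbonic anhydrase CA3, abundant in slow muscle of mammals, with 67.1 FPKM at E16 and 0.852 FPKM at E11. PPP1R27, a regulator of phosphatase 1, had 32.1 FPKM at E16 and 0.111 FPKM at E11. MYOZ1, ATP1B4, CKMT2 and ACTA1, described above, were in this set. Fat genes were THRSP, of lipid synthesis, with 42.5 FPKM at E16 and 0.0784 FPKM at E11, PLIN1, the coat of lipid droplets, with 63.6 FPKM at E16 and 0.196 FPKM at E11, and FABP4 with 712 FPKM at E16 and 5.97 FPKM at E11. PMP2 and MBP represented myelin. The small nucleolar RNA SNORA8, with 80.6 FPKM at E16 and 0.0519 FPKM at E11, had the highest log2 ratio, 9.05, and AHSG completed the set.

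The 15 largest falls were led by GAL10, the avian beta-defensin 10 at chr3:107053577-107056194, with 0.4697 FPKM at E16 and 823 FPKM at E11 and a log2 ratio of -10.50. It was among the abundant transcripts of E11 tissue and nearly missing at E16. Transport and metabolic genes known from kidney and liver made up another group. These were the lipoprotein APOB with 0.216 FPKM at E16 and 34.4 FPKM at E11, the calcium-binding CALB1 with 0.264 FPKM at E16 and 36.6 FPKM at E11, the dicarboxylate carrier SLC13A3 with 0.529 FPKM at E16 and 49.9 FPKM at E11, the vitamin D hydroxylase CYP24A1 with 0.119 FPKM at E16 and 10.4 FPKM at E11 and the pyrimidine enzyme DPYS with 0.102 FPKM at E16 and 22.9 FPKM at E11. The sulfotransferase SULT1C had 0.1702 FPKM at E16 and 55.1 FPKM at E11. Epithelial structure made up another set, with keratins KRT8, KRT19 and KRT5 at 0.0601 and 24.3 FPKM, 0.2901 and 33.5 FPKM and 0.0974 and 10.9 FPKM at E16 and E11, and desmoplakin DSP at 0.781 and 40.1 FPKM. All 9 measured keratins stood 2-fold lower. SOSTDC1, a secreted inhibitor of BMP and Wnt known from epithelial buds and kidney, had 0.342 FPKM at E16 and 22.9 FPKM at E11, and CALML3, an epithelial calmodulin relative, 0.128 FPKM at E16 and 29.1 FPKM at E11. The entry CL2 had 0.0841 FPKM at E16 and 20.4 FPKM at E11, and the histone entry H2A-VIII, one of many near-identical copies, 0.1798 FPKM at E16 and 41.1 FPKM at E11.

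At the limits of detection, 67 members were listed at 0 at E16 and 53 at E11. A listed 0 can be a failed estimate, and no fold is given against it. With the added 0.1, however, such genes count among those past 2-fold. On the 28 chromosomes with at least 50 members, the median log2 ratio lay between -0.18 and 0.20, the share 2-fold higher between 7.45% and 21.3%, and the share lower between 6.098% and 17.6%. On the Z chromosome, which females carry in a single copy, the median over 556 members was 0.06, with 14.7% higher and 10.1% lower by 2-fold. The 6 members on the W chromosome, all without a symbol, summed to 73.6 FPKM at E16 and 58.8 FPKM at E11, so that W-linked transcripts were measured at both stages.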

How the data were processed

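Leg muscle was sequenced after depletion of ribosomal RNA, with 2 libraries each at E16 and E11, and groups were taken from the sample labels. The submitters' processing notes name Trim Galore, TopHat, Bowtie and Cufflinks and the genome build galGal4, and the kit named in the labels does not mark strand, so reads of overlapping genes cannot be told apart. The authors deposited FPKM values from Cuffdiff, 1 per transcript and stage with both libraries pooled, in 3 tables scaled separately. The tables also hold the authors' log2 fold changes, test statistics, p-values and q-values, which were not used. Read counts and values per library were not analysed here, so no replicate spread, depth, interval or test is given, and the design reduces to ratios of pooled values.

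From the E16 and E11 table, Ensembl transcripts not marked HIDATA (10 were) and with at least 1 FPKM at the higher stage were kept, 1 per gene, by the highest mean. A pseudocount of 0.1 was added before the log2 ratio. Loci without a usable symbol counted as separate genes. Members and the 39 lists (1666 genes, 1396 found, 39 by an older symbol) were chosen with earlier results of these data known. Named genes were the 15 largest and 15 smallest log2 ratios at 10 FPKM or more; in each list the 2 most abundant members and the 2 farthest past 2-fold each way; the 10 most abundant genes per stage; whole isoform families; and TEAD4, DMD, FGF13 and DLK1. Genes named beyond this rule were chosen after their values were seen. RefSeq symbols (GRCg7b) served only to mark protein-coding genes. Python 3.11.15, numpy 2.4.6 and pandas 2.3.3 were used, and the ratio and selection steps were tested on simulated data. No sequence is printed, since no genome of the files' build was used. Some genes are not reported here.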

Additional observations from a re-analysis of the deposited data

How the results depend on the processing

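The counts and the median were recomputed under 11 other settings, 2 of them (only protein-coding genes, and rescaling on them) chosen after seeing the data. The number of genes 2-fold higher and lower at E16, 1589 and 1420, was within 1.5 times under both other pseudocounts, with no filter, with summed transcripts, through the stage after hatching (1563 and 1435), with HIDATA entries kept and with only protein-coding genes. With at least 10 FPKM at the higher stage, which leaves fewer genes, it was 1053 and 493. A fold of 4 gave 589 and 572. With both stages rescaled to the same summed FPKM it was 737 and 4289, with a median log2 ratio of -0.76. Leaving out the 100 most abundant genes from that sum gave 1082 and 2348, and summing protein-coding genes only gave 878 and 3256. These shifts follow from the construction of the rescaling. The setting through the stage after hatching rests on the same E16 and E11 libraries, so its closeness to the main counts is no independent support. The 10 most abundant genes held 17.5% at E16 and 9.34% at E11 when only protein-coding genes were counted.

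The 15 lists with a median past 2-fold kept their direction under each of the 11 settings that apply to lists, and 9 stayed past 2-fold after rescaling to the same sum. Under the rescalings a direction past 2-fold was fixed in advance, since log2 ratios drop by at most 0.77. Of 172 genes named by the rule with a 2-fold difference, 148 stayed past 2-fold under rescaling to the same sum, and none could change direction. No paired analysis was possible because each value pools both libraries of a stage, and for the same reason no library could be left out in turn. Depth limits the scarce genes most, since a value near 1 FPKM can rest on few fragments and the counts behind it were not analysed here.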
